A study of Mus musculus with 8 samples.

Results

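The Dlk1-Meg3 domain is an imprinted cluster on mouse chromosome 12, and 6 of its genes were followed here: the noncoding Meg3, Rian and Mirg, and the protein-coding Dlk1, Rtl1 and Dio3. They were found by gene symbol among the 54281 genes of the deposited tables, in which no member's symbol was repeated, and were chosen by name rather than by their values. The samples were RNA-seq libraries of epiblast-like cells (EpiLCs), the formative pluripotent state that embryonic stem cells (ESCs) enter before lineage commitment. Separate male ESC lines had been derived from blastocysts on the B6129S6F1 Tet1 tm1Koh background, 4 of them Tet1 knockout (KO1, KO9, KO15 and KO25, KO) and 4 wild type (WT7, WT12, WT17 and WT34, WT). The study describes the lines as littermate pairs, but the labels do not say which lines share a litter. Each line gave a single library. All had been grown on fibroblast feeders, adapted to 2i and LIF medium without feeders, and converted for 2 days in N2B27 medium with 1% knockout serum replacement and 12 ng/ml bFGF on fibronectin, without Activin A. The column names carry a suffix, b1 for KO1, KO9, WT7 and WT17 and b2 for KO15, KO25, WT12 and WT34, whose meaning the labels do not give. The libraries titled WT12 and WT17 carry the cell line labels WT9 and WT12, and are named by their titles.

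Genes of this domain are expressed from 1 parental chromosome. On the maternal chromosome an intergenic control region lacks DNA methylation, and a long run of noncoding RNA is made from Meg3 through Rian, which hosts small nucleolar RNAs (snoRNAs), to Mirg, which hosts microRNAs (miRNAs). On the paternal chromosome that region is methylated, the noncoding genes are silent, and Dlk1, Rtl1 and Dio3 can be expressed. In stem cell cultures Meg3 is widely read as a sign of whether the maternal program is active, since the region can gain methylation in culture, and TET1 is an enzyme that starts the removal of DNA methylation. The files give total RNA per gene, so the parental origin of the RNA and the methylation of the region were not measured here.

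Library totals ran from 13916576 to 23680839 estimated counts, and pairwise correlations of log2 CPM (counts scaled to a common library size) between libraries ran from 0.945 to 0.976. Tet1, the targeted gene, was at 38.4 to 54.2 CPM in the KO lines and at 559 to 851 CPM in the WT lines, which fits the labels of all 8 libraries. All 6 core pluripotency markers and all 10 formative and primed markers averaged at least 1 TPM (a level corrected for transcript length). Of 12 markers of the naive ESC state 9 also averaged at least 1 TPM. The naive list summed to 77.5 to 108 TPM, against 823 to 1109 TPM for the formative and primed list. These levels do not measure how completely the cells had converted. Pou5f1, a core pluripotency factor, ranged from 412 to 512 TPM. Of the markers of other cells, trophoblast genes summed to 21.4 to 58.5 TPM, and 5 of the 8 averaged at least 1 TPM. Extraembryonic endoderm genes summed to 2.23 to 4.92 TPM with Ttr at 0 in every line, and feeder fibroblast genes to 5.65 to 30.1 TPM with Postn at 0 in every line. No marker of the core, formative and primed, trophoblast, endoderm or feeder lists was called between KO and WT by edgeR, DESeq2 or limma. Of the tested genes of those lists 1, the endoderm factor Sox7, had an unadjusted p under 0.05 by edgeR (log2 fold change 2.03, SE 0.42, adjusted p = 0.308). Over all 17272 genes tested edgeR called 7 (0.0405%), and 970 had an unadjusted p under 0.05. The spread among lines mixes differences between lines, cultures and libraries, and in bulk RNA a smaller share of expressing cells cannot be told apart from less RNA per cell.

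The noncoding genes filled the domain's RNA. Together the 6 genes took 0.0633% to 0.182% of the counts of a library, and Meg3, Rian and Mirg held 99.5% to 99.8% of that. Per length, the order Rian, Meg3, Mirg, Dlk1, Dio3, Rtl1 was the same in every line. Rian and Meg3 overlapped across lines, since Rian in KO15 (195 TPM) was under Meg3 in WT12 (280.5 TPM), and the other neighbours in the order did not overlap. Rian averaged 310.4 ± 102 TPM (SD, n = 8), Meg3 174 ± 53.8 TPM, Mirg 20.5 ± 11.2 TPM, Dlk1 1.02 ± 0.377 TPM and Dio3 0.141 ± 0.0639 TPM. Rtl1 did not exceed 0.00877 TPM in any line. By mean TPM Rian ranked 395 and Meg3 642 among the 54281 genes, which places both within the top 2% of genes in each line.

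The Meg3 promoter is shown because Meg3 opens the noncoding run and was, with Rian, the most abundant RNA of the domain. The gene lies at chr12:109541001-109571726 on the plus strand (GRCm38), where 11 transcripts are annotated. The window below is RefSeq's for its first start, chr12:109540746-109541045 on the plus strand of GRCm38.p6, from 250 bases before the start to 50 after. Capitals mark matches, in order, to TGCCGC (a motif bound by the imprint-protecting zinc finger ZFP57 when methylated, here on the opposite strand), CCAAT, TGACGTCA (the cyclic AMP response element) and TATAAA on both strands, where its 2 matches overlap.
Meg3 promoter: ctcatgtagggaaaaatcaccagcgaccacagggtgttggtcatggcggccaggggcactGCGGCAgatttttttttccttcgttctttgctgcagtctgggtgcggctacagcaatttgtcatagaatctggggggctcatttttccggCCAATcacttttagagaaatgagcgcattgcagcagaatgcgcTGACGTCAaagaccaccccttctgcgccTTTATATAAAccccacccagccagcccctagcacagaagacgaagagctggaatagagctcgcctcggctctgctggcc
The element TGACGTCA began 57 bases before the start and is held by 1.79% of the 32817 mouse promoter windows of the same length, against 13.6% for TATAAA, 37.4% for CCAAT and 11.6% for TGCCGC, all searched on both strands. The window also held 13 CpG dinucleotides, against a median of 7 over all windows. The RefSeq windows of Rian, Mirg, Dlk1 and Dio3 held neither TGACGTCA nor TGCCGC, and no window was listed for Rtl1. The Dio3 window held 25 CpG and 1 TATAAA, the Mirg window 10 CpG, the Dlk1 window 9 and the Rian window 0. The Mirg window, chr12:109734731-109735030, lies inside the annotated gene, which begins at chr12:109729764, so it does not cover that first base. A match describes the letters and not occupancy.

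Mature miRNAs are not read by these poly(A)-selected libraries, but their position ties them to the members. RefSeq places 58 miRNA hairpins and 113 named mature sequences between the start of Dlk1 and the end of Dio3, with 104 different seeds. Of the mature sequences 26 lie within Mirg, at chr12:109729764-109749460 on the plus strand, and 11 lie within Rtl1 on the strand opposite to that gene, which runs on the minus strand of chr12:109589193-109600330. Sequences of the Rtl1 kind pair in full with Rtl1 RNA, and 4 are shown with 4 of those in Mirg, with the seed (bases 2 to 8) in capitals.
mmu-miR-127-3p: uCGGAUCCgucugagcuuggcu
mmu-miR-136-5p: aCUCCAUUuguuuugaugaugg
mmu-miR-431-5p: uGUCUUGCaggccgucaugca
mmu-miR-434-3p: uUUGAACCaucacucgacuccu
mmu-miR-134-5p: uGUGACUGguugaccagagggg
mmu-miR-410-3p: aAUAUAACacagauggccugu
mmu-miR-453: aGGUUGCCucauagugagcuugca
mmu-miR-496a-5p: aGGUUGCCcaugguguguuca
The first 4 lie opposite Rtl1 and the last 4 within Mirg. miR-453 and miR-496a-5p share the seed GGUUGCC, the only seed held by more than 1 of the 26 sequences in Mirg.

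Meg3 is a nuclear long noncoding RNA and the founder of the maternal run. Its level was 462.5 CPM in KO1, 451 in KO9, 277 in KO15 and 488 in KO25. In the WT lines it was 530.4 CPM in WT7, 804 in WT12, 335 in WT17 and 359.7 in WT34. KO15 was the lowest line and WT12 the highest, 2.91 times apart, and the other KO lines fell within the WT range. The estimated log2 fold change of KO over WT was −0.27 (SE 0.28, 95% confidence interval −0.91 to 0.36, adjusted p = 0.998 by edgeR's quasi-likelihood test). No call was made for any member: 0 of the 5 members that passed the filter on low counts differed between KO and WT, against 0.0405% of the 17272 genes tested (7 genes). None of the 5 reached an unadjusted p of 0.05 with edgeR, and none was called by DESeq2 or by limma on log2(TPM + 1).

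Rian, annotated at chr12:109603940-109661716 with 20 transcripts, is the host of the C/D box snoRNA arrays. It stood at 648 CPM in KO1, 679.6 in KO9, 362 in KO15 and 667 in KO25. The WT lines had 756 CPM in WT7, 941 in WT12, 455 in WT17 and 432 in WT34. The same lines were lowest and highest as for Meg3, 2.6 times apart, and the groups overlapped. The log2 fold change was −0.13 (SE 0.28, interval −0.76 to 0.50, edgeR adjusted p = 0.998). Without WT12 the estimates were 0.037 for Meg3 and 0.10 for Rian, so the sign of both rested on that line, and without KO15 that of Rian was 0.041.

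Mirg is the most distal of the noncoding members and contains a cluster of miRNA hairpins. It was measured at 19.7 CPM in KO1, 15.4 in KO9, 20.3 in KO15 and 31 in KO25. In the WT lines it was at 24 CPM in WT7, 51.7 in WT12, 12.3 in WT17 and 29.2 in WT34. WT12 was again the highest line, but the lowest was WT17, and the KO lines all lay within the WT range. The log2 fold change was −0.44 (SE 0.38, interval −1.31 to 0.42, edgeR adjusted p = 0.998), and −0.016 without WT12.

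Among the protein-coding members, Dlk1 encodes a transmembrane ligand related to the Notch ligands that restrains differentiation of several cell types. Counts of Dlk1 were 23 to 58 per line, or 1.64 CPM in KO1, 1.75 in KO9, 2.49 in KO15, 1.9 in KO25, 1.87 in WT7, 2.42 in WT12, 1.08 in WT17 and 2.19 in WT34. Groups overlapped and the log2 fold change was 0.042 (SE 0.30, interval −0.63 to 0.71, edgeR adjusted p = 0.998). Dio3 encodes the deiodinase that inactivates thyroid hormone, and lies at the far end of the domain, 738 kb from Meg3. It had 3 to 22 counts per line, or 1.03 CPM in KO1, 0.301 in KO9, 0.727 in KO15, 0.219 in KO25, 0.715 in WT7, 0.375 in WT12, 0.33 in WT17 and 0.708 in WT34. Its log2 fold change was 0.16 (SE 0.53, interval −1.03 to 1.34, edgeR adjusted p = 0.998), so that a change of more than 2-fold either way lies inside the interval. The sign of Dlk1 turned without KO15 (−0.10) or WT17 (−0.15), and that of Dio3 without KO1 (−0.30) or WT17 (−0.020).

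Rtl1, a retrotransposon-derived gene needed in the placenta, was not detectable above the floor of 3 counts. It had 0 to 2.12 estimated counts per line and did not pass the filter, and no fold change is given for it. Mean levels were 0.0559 ± 0.0439 CPM in KO and 0.0935 ± 0.0361 CPM in WT (SD, n = 4 each), with overlapping lines (two-sided exact permutation test over 70 assignments, p = 0.257; the smallest p that 4 against 4 lines allow is 0.0286).

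**Figure D1:**
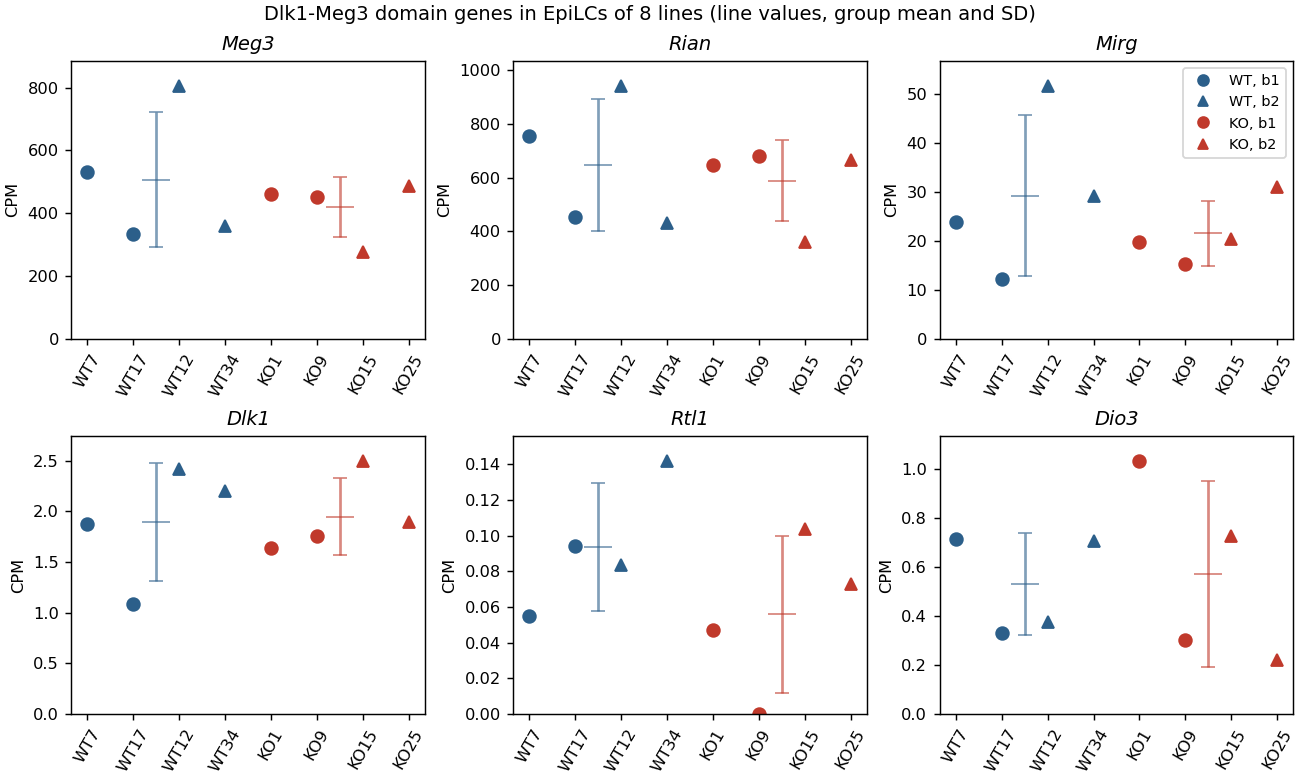
CPM of each member (y axes, from 0) in each line (x axis), WT in blue and KO in red, circles for b1 and triangles for b2, with the mean and SD (bars) of each group of 4. In every panel the KO and WT lines overlap; WT12 is highest for Meg3, Rian and Mirg, and KO15 is lowest for Meg3 and Rian.

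Within each suffix, 2 KO lines were set against 2 WT lines. In the b1 lines the log2 fold changes were 0.078 for Meg3, 0.13 for Rian, −0.040 for Mirg, 0.21 for Dlk1 and 0.37 for Dio3. In the b2 lines they were −0.60, −0.41, −0.66, −0.064 and −0.086 in the same order. All 5 members were lower relative to WT in b2 than in b1. The difference between the suffixes, tested as an interaction, was −0.69 for Meg3 (SE 0.54), −0.55 for Rian (SE 0.55) and −0.63 for Mirg (SE 0.52), and none passed (edgeR adjusted p = 1.00 for each).

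**Figure D2:**
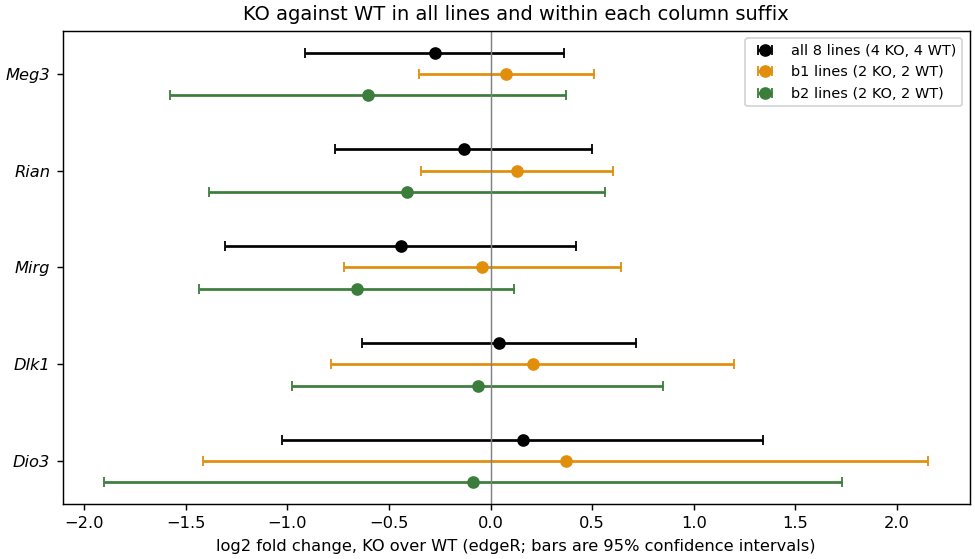
Log2 fold change of KO over WT (x axis) for the 5 members that could be fitted (y axis), in all 8 lines (black), the b1 lines (orange) and the b2 lines (green), with 95% confidence intervals from edgeR. Every interval includes 0, and each b2 estimate lies to the left of its b1 estimate.

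Meg3 and Rian followed each other closely over the 8 lines, with Pearson's r of 0.965 (exact permutation p = 0.000248, adjusted over the 3 pairs 0.000744) and Spearman's rho of 0.905 (exact permutation p = 0.00456, adjusted 0.0137) on log2 CPM. Without KO15 and WT12, the lines farthest from the Meg3 median, r was 0.964 over 6 lines (exact permutation p = 0.0139) and rho was 0.771 (exact permutation p = 0.103). With values centred within suffix r was 0.985. Rian per Meg3 ranged only from 1.59 to 2.01 on the TPM scale, whereas Meg3 TPM varied 2.65 times and Rian TPM 2.68 times between lines. Both genes lie on the plus strand, their starts 62.9 kb apart, and the points share library and normalisation.

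For Meg3 and Mirg in the pooled lines r was 0.677 (exact permutation p = 0.064, adjusted 0.096) and rho was 0.619 (exact permutation p = 0.115, adjusted 0.172). The pooled permutations for Mirg exchange lines across suffixes, between which Mirg per Meg3 did not overlap. The pooled values therefore do not measure how closely Mirg followed the other genes within a suffix. For Rian and Mirg r was 0.497 (exact permutation p = 0.209, adjusted 0.209) and rho was 0.357 (exact permutation p = 0.389, adjusted 0.389). Without KO15 and WT12 the r of Meg3 and Mirg was 0.404 (exact permutation p = 0.406), and without the lines farthest from the Rian median, KO15 and WT34, the r of Rian and Mirg was 0.855 (exact permutation p = 0.0403, adjusted 0.0604). Without WT12 alone r was 0.300 for Meg3 and Mirg and 0.134 for Rian and Mirg. Within suffix the picture was tighter. After centring, r was 0.937 for Meg3 and Mirg and 0.900 for Rian and Mirg, with exact permutation p of 0.00174 and 0.00347 when lines were exchanged within a suffix alone (576 pairings). Each suffix alone holds 4 lines, too few for a correlation of its own.

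**Figure D3:**
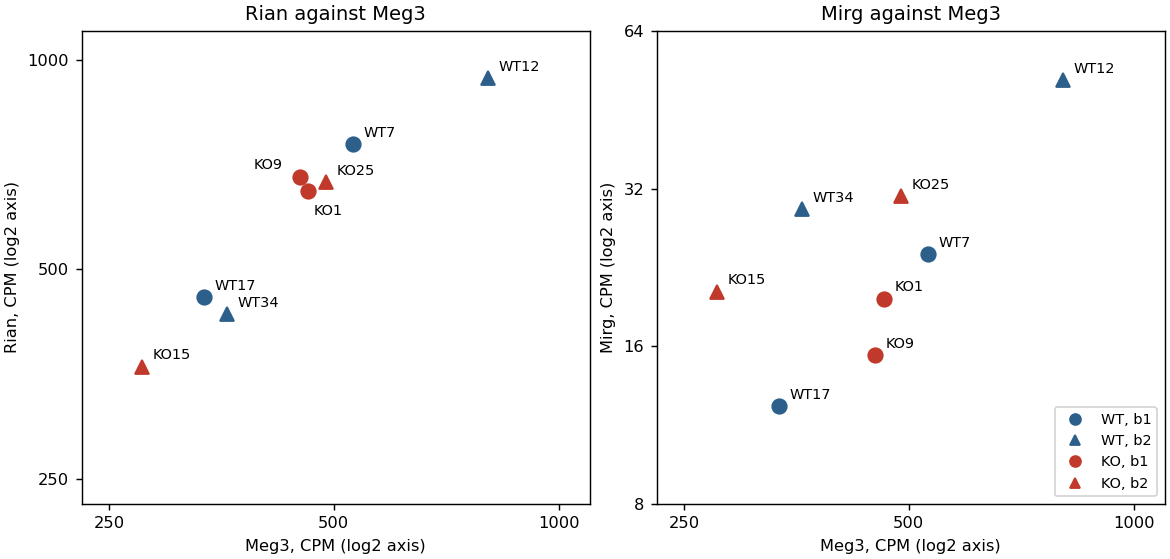
Rian (left) and Mirg (right) against Meg3 in each of the 8 lines, as CPM on log2 axes, with colours for genotype and symbols for suffix. Rian rises with Meg3 in a single band from KO15 to WT12, while Mirg forms 1 band of b1 lines and a higher band of b2 lines.

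The separation of those bands is a difference in Mirg per Meg3. On the TPM scale the ratio was 0.0897 in KO1, 0.0674 in KO9, 0.0904 in WT7 and 0.0784 in WT17, all b1. It was 0.166 in KO15, 0.145 in KO25, 0.164 in WT12 and 0.137 in WT34, all b2. The suffixes did not overlap, and both genotypes lay on both sides. On the CPM scale, which does not correct for transcript length, the ratio was 0.0341 to 0.0452 in b1 and 0.0635 to 0.0813 in b2. Rian per Meg3 in TPM overlapped between suffixes, at 1.59 to 1.85 in b1 and 1.65 to 2.01 in b2. These ratios are given as a description, with no test.

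**Figure D4:**
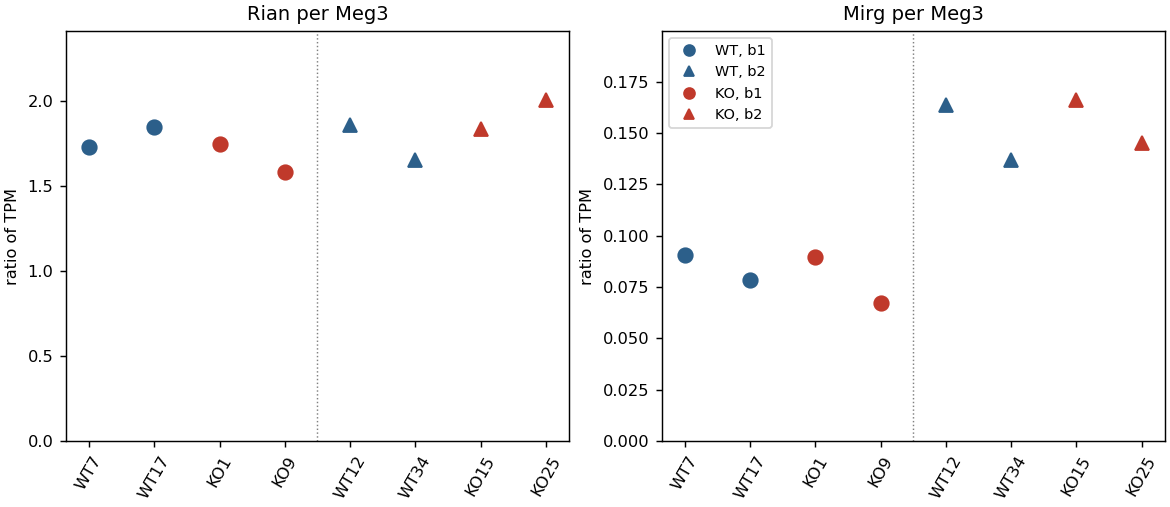
Ratio of TPM (y axes, from 0) of Rian to Meg3 (left) and of Mirg to Meg3 (right) in each line, with b1 lines left and b2 lines right of the dotted line. Rian per Meg3 overlaps between suffixes, and Mirg per Meg3 is at most 0.0904 in b1 and at least 0.137 in b2.

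In the fit with genotype and suffix as terms, Mirg was higher in b2 than in b1, with a log2 difference of 0.86 (SE 0.27, interval 0.26 to 1.46, edgeR adjusted p = 0.0420), or 1.81-fold. It was the only 1 of the 5 members called between suffixes, against 24.6% of all 17272 genes tested (4253 genes), so that such a call was common. The call was lost when library size alone was used in place of TMM (adjusted p = 0.0543), with an offset for transcript length (0.094), with limma on log2(TPM + 1) (0.201) and when KO9, KO25, WT7, WT12 or WT17 was left out (0.0673 to 0.11). It was kept with RLE scaling (0.0430) and with DESeq2 (0.00463). In CPM the Mirg levels of the suffixes overlapped, since WT7 in b1 exceeded KO15 in b2. Dlk1 was also estimated higher in b2, by 0.51 (SE 0.25, interval −0.047 to 1.08, edgeR adjusted p = 0.164). Its CPM did not overlap between the suffixes, at most 1.87 in b1 (WT7, 34 counts) and at least 1.9 in b2 (KO25, 26 counts). In TPM the suffixes did overlap for Dlk1, since KO9 in b1 (1.14) exceeded KO25 in b2 (1.09). Estimates for Meg3 (0.086), Rian (−0.093) and Dio3 (−0.21) were smaller than their SE.

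Other measures moved with the suffix as well. Mitochondrial RNA took 1.36% to 1.99% of counts in b1 and 2.02% to 2.81% in b2. The 6 core pluripotency markers summed to 701 to 739 TPM in b1 and 796 to 843 TPM in b2, and the 10 feeder fibroblast markers to 20.1 to 30.1 TPM in b1 and 5.65 to 17.5 TPM in b2. Only 2 of the 10 feeder markers averaged at least 1 TPM. Of the feeder markers 5 were tested between suffixes, 2 of them estimated higher in b2, with a median log2 difference of −0.044. Thy1 alone was called, lower in b2, beside 24.6% of all genes tested. The part of these differences in the levels of Mirg and Dlk1 was not tested.

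The spread of Meg3 and Rian between lines was large for RNAs this abundant. Among the 2293 genes with a mean of at least 100 CPM, the highest line exceeded the lowest by a median of 1.33 times. Only 2.27% of them varied as much as Meg3 and 3.01% as much as Rian. The biological coefficient of variation within groups was 0.287 for Meg3, against 0.164 for the trend of genes at its level, and 0.384 for Mirg, against 0.22. For Dlk1 it was 0.286, under its trend of 0.388.

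Few other genes of the domain averaged 1 CPM in these libraries. The annotation lists 118 genes between the start of Dlk1 and the end of Dio3, of which 116 were in the table, 60 had a count in any line and 6 averaged at least 1 CPM. Meg3, Rian, Mirg and Dlk1 are 4 of these 6. The others are B830012L14Rik and Gm37899, transcripts of unknown function on the plus strand between Rian and Mirg. B830012L14Rik, at chr12:109695586-109702587, ranged from 2.77 to 5.62 CPM in KO and from 3.86 to 7.76 CPM in WT (log2 fold change −0.57, SE 0.30, edgeR adjusted p = 0.952). Gm37899, at chr12:109668869-109677585, ranged from 1.55 to 6.78 CPM in KO and from 4.9 to 6.8 CPM in WT (log2 fold change −0.51, SE 0.41, edgeR adjusted p = 0.998). Of the 67 annotated miRNA genes 28 had a count and none averaged 1 CPM. Of the 23 snoRNA genes 15 had a count and none averaged 1 CPM. Where such a short gene lies inside Meg3, Rian or Mirg, its few reads can belong to the host.

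**Figure D5:**
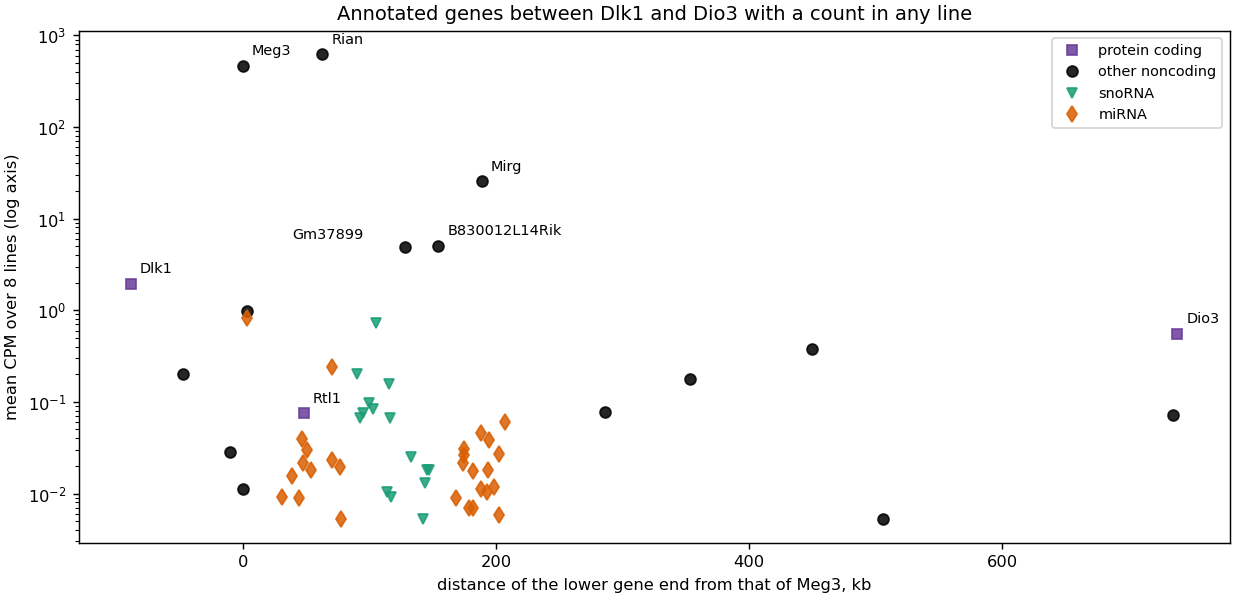
Mean CPM over the 8 lines (y axis, log scale) of each annotated gene between Dlk1 and Dio3 with a count in any line, against the distance in kb from the lower end of Meg3 (x axis), with symbols for gene type. Meg3, Rian and Mirg stand above the rest, and the miRNA and snoRNA genes lie under 1 CPM.

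Genes with known ties to the domain were counted from lists. Of 17 genes that protect or set the methylation of imprinted regions, all tested, Tet1 alone was called between KO and WT, lower in KO (log2 fold change −3.97, SE 0.17, edgeR adjusted p = 2.09e-05). DESeq2 called it too and limma on log2(TPM + 1) did not. No other gene of the list reached an unadjusted p of 0.05 by edgeR or was called by DESeq2 or limma. Dnmt3l, a cofactor of de novo methylation, was at 188 ± 25.7 CPM in KO and 149 ± 67.8 CPM in WT (SD, n = 4 each; log2 fold change 0.34, SE 0.29, edgeR adjusted p = 0.998). Dnmt1, the maintenance methyltransferase, was at 386 ± 23.4 and 410.3 ± 25.8 CPM (−0.088, SE 0.077, edgeR adjusted p = 0.998). Of the same list 5 genes, Zfp445, Ctcf, Dnmt3a, Tet3 and Yy1, were higher in b2 than in b1, where 24.6% of all genes tested were called. All 11 subunits or partners of polycomb repressive complex 2, which Meg3 RNA is known to bind, were tested, and 0 were called between KO and WT by edgeR, DESeq2 or limma or had an unadjusted p under 0.05 by edgeR. Over all 17272 genes tested edgeR called 0.0405% between KO and WT, so that 0 calls in a short list was common. An unadjusted p under 0.05 was reached by 970 genes.

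The pathways that the protein-coding members act in gave no call between KO and WT either. Over all 17272 genes tested edgeR called 0.0405% (7 genes), so that 0 calls in a short list was common. An unadjusted p under 0.05 was reached by 970 genes. Of 18 Notch pathway genes 15 were tested and 0 called by edgeR, DESeq2 or limma, with 2 under an unadjusted p of 0.05 by edgeR. Those were Hes1, a target of Notch signalling (log2 fold change −0.65, SE 0.23, adjusted p = 0.777), and Dll3, a Notch ligand-like protein (−0.97, SE 0.39, adjusted p = 0.815). Of 14 thyroid hormone pathway genes 10 were tested and 0 called by the 3 tools, with Crym, a hormone-binding protein, under an unadjusted p of 0.05 (0.56, SE 0.23, edgeR adjusted p = 0.827). Dio2 and the transporter gene Slco1c1 were at 0 in every line. Of 11 genes of the retrotransposon-derived family of Rtl1, 6 were tested and 0 called by the 3 tools. Peg10, an imprinted member of that family, was under an unadjusted p of 0.05, with 314 ± 112 CPM in KO and 525 ± 168 CPM in WT (−0.74, SE 0.29, edgeR adjusted p = 0.816). Log2 fold changes were above 0 for 3 of the 15 Notch genes, 5 of the 10 thyroid hormone genes and 0 of the 6 family genes. Of all genes tested 49.0% were above 0, and no list was tested as a whole.

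Genes that mature the small RNAs of Rian and Mirg were all tested and none of 13 was called between KO and WT by edgeR, DESeq2 or limma, or fell under an unadjusted p of 0.05 by edgeR. Between the suffixes 4 of them, Dgcr8, Ago1, Nop58 and Snu13, were called higher in b2, again beside 24.6% of all genes tested. Ago1, which carries miRNAs, differed by 0.98 (SE 0.08, edgeR adjusted p = 0.000123), and Dgcr8, which recognises miRNA hairpins, by 0.64 (SE 0.13, edgeR adjusted p = 0.00725). Of 17 genes that flank the domain 16 were tested and 0 were called between KO and WT by the 3 tools or had an unadjusted p under 0.05 by edgeR, while 3 were higher and 2 lower in b2, with the same 24.6% of all genes called. Of 5 long RNAs retained in the nucleus 4 were tested and 0 called between KO and WT by the 3 tools. Neat1, the 1 of them under an unadjusted p of 0.05, was at 32.6 ± 9.12 CPM in KO and 48.9 ± 9.18 CPM in WT (−0.58, SE 0.22, edgeR adjusted p = 0.793). Log2 fold changes of KO over WT were above 0 for 7 of the 13 maturation genes, 5 of the 16 flanking genes and 0 of the 4 nuclear RNAs. Over all 17272 genes tested edgeR called 0.0405% between KO and WT, and 970 had an unadjusted p under 0.05.

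The genes outside the domain whose log2 CPM followed Meg3 most closely over the 8 lines were Gpr75 (r = 0.974), Chmp4c (0.966), Pcdhgc5 (0.944), Tmem200a (0.944) and Rad50 (0.935), of 15183 genes with a mean of at least 1 CPM. None of them lies on chromosome 12. Rian had the third highest r with Meg3 of all these genes, Mirg ranked 539 and Dlk1 4397 (r = 0.217). For Dlk1 the closest genes were Nudt6 (r = 0.973), Psmf1 (0.947), Fer (0.945), Por (0.943) and Gm11627 (0.943). With 8 lines and so many genes these are descriptions, with no test.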

How the data were processed

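Per the methods, the authors prepared stranded, poly(A)-selected libraries, read them as single ends, trimmed reads with Trim Galore 0.6.4 and quantified transcripts with Salmon 0.14.1. Gene-level summaries were made with tximport. The authors deposited 2 tables, of estimated counts and of TPM. The build mm10 is named in the submitters' processing notes, and GENCODE release 23 of mouse in the methods. Positions here are from GENCODE M21 of the same assembly (GRCm38), and promoter and miRNA sequences from RefSeq on GRCm38.p6. Promoter windows were listed for 5 of the 6 members.

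Deposited values of the count table were rounded, which moved 27.8% of them by at most 0.5. After filterByExpr, 17272 genes were fitted in edgeR 4.0.16 under R 4.3.3 with TMM scaling. KO was tested against WT, and b2 against b1 with genotype as a term, by quasi-likelihood with Benjamini-Hochberg adjustment over every gene fitted. A gene was called at an adjusted p under 0.05. CPM stands for rounded counts over TMM-scaled library sizes. Correlations used log2 CPM with a prior count of 1 and exact permutation of pairings, two-sided, adjusted over the 3 pairs. The floor of 3 counts covers counting error only. The edgeR script was tested on simulated data. It called 18% of simulated 1.5-fold changes, 58% of 2-fold, 80% of 3-fold and 86% of 4-fold changes. A gene that was not called can therefore still differ between KO and WT. Alternatives were DESeq2 1.42.0, limma 3.58.1 on log2(TPM + 1) and log2(TPM + 0.1), RLE scaling, unscaled library sizes, an offset for transcript length, other filters, the suffix as a term and each line left out.

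The members and gene lists were chosen with earlier results of these data known. Named genes were the 6 members, annotated genes of the domain averaging at least 1 CPM, up to 3 genes per list with the smallest p, and the 5 genes most correlated with Meg3 or Dlk1. Genes of a list called between suffixes, and list genes at 0 in every line, were named after their values were seen. The 17 lists also held naive, trophoblast, primitive streak and neural markers and histones lacking poly(A) tails. No pairs of lines were formed, since the labels tie none.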

Additional observations from a re-analysis of the deposited data

Results flagged for a closer look

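Rian in KO15 stood apart from the other KO lines. It was at 362 CPM, against 648 to 679.6 CPM in the other 3, and its gap to them was 0.899 of the range of the group, above Dixon's critical value of 0.829 for 4 samples. Of 16 gene and group combinations examined this was the 1 above that value, and chance alone places about 1 in 20 there. Meg3 in KO15 was just under it, at 0.825. The library total of KO15 was within the range of the others. Dlk1 in KO15, at 2.49 CPM, was the highest of the 8 lines in CPM, just above WT12 (2.42 CPM). In TPM WT12 was the higher of these lines (1.40 against 1.39).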

How the results depend on the processing

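Genes called between KO and WT numbered 7 with edgeR and 96 with DESeq2, 28 with the suffix as a term, 19 in b1 alone, 3 with the length offset, 3 with limma on log2(TPM + 1) and 4 with limma on log2(TPM + 0.1). No member was called between KO and WT under any alternative (smallest adjusted p 0.648). Signs of log2 fold changes turned in b1 alone for Meg3 (0.078) and Rian (0.13), in b2 alone for Dlk1 (−0.064) and Dio3 (−0.086), and with limma on log2(TPM + 0.1) for Dio3 (−0.031). With 1 line left out they ran from −0.42 to 0.037 for Meg3, −0.28 to 0.10 for Rian, −0.69 to −0.016 for Mirg, −0.15 to 0.19 for Dlk1 and −0.30 to 0.39 for Dio3.

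Between suffixes Mirg lost its call with library size alone (log2 difference 0.81, edgeR adjusted p = 0.0543) and the length offset (0.87, edgeR adjusted p = 0.094). Mirg also lost it with limma on log2(TPM + 1) (0.79, limma adjusted p = 0.201). With 1 line left out its log2 difference ran from 0.59 to 1.03, with adjusted p from 0.0298 to 0.11. Signs turned with the length offset and with limma for Meg3 (−0.043 and −0.082) and Rian (0.073 and 0.0043). With 1 line left out the differences ran from −0.27 to 0.30 for Meg3, −0.43 to 0.11 for Rian and −0.49 to 0.26 for Dio3. The cause was not tested for any of these.

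Centring within suffix raised r to 0.937 for Meg3 and Mirg and to 0.900 for Rian and Mirg, past the threshold. With 1 line left out, r ran from 0.947 to 0.978 for Meg3 and Rian, from 0.300 to 0.771 for Meg3 and Mirg and from 0.134 to 0.644 for Rian and Mirg, the lowest of the latter pairs being without WT12. Rtl1 was at or under the floor, and its fitted fold changes are not given. Dio3 did not pass the filter of 10 counts in every library. No paired analysis was possible because the labels give the lines of KO and WT no shared replicate numbers and do not say which lines are littermates.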

Other observations

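Neural and mesodermal markers, not yet described, were low. Of 8 primitive streak and mesoderm genes 3 were tested, and none was called between KO and WT by edgeR, DESeq2 or limma, as in the other lists of this paragraph. The streak and mesoderm list summed to 1.23 to 1.88 TPM in KO and to 0.541 to 0.947 TPM in WT. The groups did not overlap in this sum, on which no test was run. By edgeR 1 gene each of the primitive streak (T), neural (Zic1) and naive (Nanog) lists had an unadjusted p under 0.05, and 0 of the trophoblast and histone lists. Over all 17272 genes tested 970 had such a p, and 7 (0.0405%) were called. T, the streak regulator, was at 0.975 ± 0.339 CPM in KO and 0.359 ± 0.223 CPM in WT (SD, n = 4 each), with a log2 fold change of 1.39 (SE 0.49, edgeR adjusted p = 0.777). Eomes, another streak regulator, differed between suffixes, higher in b2 by 1.44 (SE 0.22, edgeR adjusted p = 0.00196), where 24.6% of all genes tested were called. No gene of the streak and mesoderm list averaged 1 TPM. Of 6 neural ectoderm genes 4 were tested and 0 called between KO and WT, and the list summed to 3.02 to 4.87 TPM in b1 and 5.63 to 11.9 TPM in b2. Of 12 naive markers 11 were tested and 0 called, with Nanog at 31.3 ± 4.84 CPM in KO and 45.7 ± 12.3 CPM in WT (−0.55, SE 0.19, edgeR adjusted p = 0.751). Of 8 trophoblast markers 7 were tested and 0 called, and of 8 histone genes whose RNA lacks a poly(A) tail 6 were tested and 0 called between KO and WT.

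Counts and TPM together give the mean effective length of the transcripts to which a gene's reads were assigned, after a scale set on 675 genes with 1 annotated transcript. For Rian it was 870 bases in KO1, 943 in KO9, 890 in WT7 and 832 in WT17, all b1, and 774 in KO15, 803 in KO25, 791 in WT12 and 792 in WT34, all b2. The suffixes did not overlap (two-sided exact permutation p = 0.0286, the smallest that 4 against 4 lines allow, adjusted p = 0.114 over Meg3, Rian, Mirg and Dlk1). KO and WT overlapped (exact permutation p = 0.686). For Meg3 the length was 992 to 1132 bases in b1 and 1086 to 1256 in b2 (exact permutation p = 0.171, adjusted 0.305), and for Mirg 502 to 541 in b1 and 480.0 to 648 in b2 (exact permutation p = 0.971). This quantity was examined after the data had been seen, and it reflects the annotation and the assignment of reads as well as the RNA.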
